A study of Mus musculus with 3 samples.

Results

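Genes whose symbols begin with Kcn encode potassium channels, their accessory subunits and a few RNAs transcribed from the same loci. The gene table of this mouse glomerulus study held 99 such genes of 31058 in all, chosen by that prefix alone, and 63 of them had at least 20 unique molecular identifiers (UMIs, counts of distinct captured RNA molecules) over the kept cells. Those 63, of 16238 genes at that depth, are described here. They comprised 24 voltage-gated subunits of 40 listed, 10 inward rectifiers of 15, 8 tandem-pore-domain channels of 14, 7 calcium- or sodium-activated pores of 8, 12 auxiliary subunits of 16, 1 regulator (Kcnrg) and 1 of 5 non-coding RNAs (Kcnq1ot1). The voltage-gated subunits include pores and modifiers, such as Kcng2, Kcnf1 and Kcns3. Of the 36 below that minimum, 8 had 0 UMIs: Kcna10, Kcnip1, Kcnj6, Kcnk9, Kcnk15, Kcnk16, Kcnk18 and Kcns2. Kcnd2, Kcnip4, Kcnk12 and Kcnmb4 stood at the threshold with 20 UMIs, and Kcnd3os with 18 and Kcnip3 and Kcnq3 with 17 each stood just outside it.

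Glomeruli are the capillary filters of the kidney, and all cells obtained from them were profiled by droplet sequencing of 3′ tags in 3 healthy C57Bl/6 mice of 90 days, 1 mouse and 1 library per group. The male and female libraries came from mice of the genotype Pax2.rtTA;TetO.Cre;R26.Confetti, in which doxycycline, given to all mice at 20 days, switches on Cre in cells that use the Pax2 promoter and turns on a colour reporter. The female ERaKO library, named here after its label, came from a female mouse with the same alleles and ERalphaKO, a label that stands for loss of the oestrogen receptor alpha gene, Esr1, from the progenitors of the kidney (RPC). Deletion would be limited to cells in which the Pax2 driver was active. With n = 1 per group the spread between animals is unknown, and intervals are for counting error alone.

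After filtering, 3221, 2847 and 2471 cells were kept in the male, female and female ERaKO libraries, of 4244, 3555 and 3986 barcodes with 44585342, 44942380 and 47522141 UMIs. The share of barcodes removed for more than 25% mitochondrial UMIs was 21%, 17.7% and 34.0%, and 8 to 12 barcodes of each library also occurred in another. Esr1 had 84, 73 and 122 UMIs in the kept cells. In proximal tubule cells it stood at 4.22, 3.0 and 14.4 UMIs per 1e+06 UMIs, so it was not lower in the library labelled knockout, and because the deleted part of the gene is not given in the sources used here, these 3′ tags do not check the label. Cells were clustered without any Kcn gene, and 11 classes with at least 10 cells in each library were named from fixed markers as podocyte-like, endothelial-like and so on, written below without the suffix. The cells numbered 1317, 1533 and 897 podocytes, 772, 684 and 480 endothelial cells, 286, 158 and 249 smooth muscle and renin cells (the mural class), 189, 44 and 134 mesangial cells, 170, 119 and 260 proximal tubule cells and 120, 78 and 206 parietal epithelial cells, besides smaller tubule and immune classes. Every marker of a class was highest in that class for 9 of the 11; the exceptions were the thick limb and distal tubule class, with 10 of 11, and the parietal class, with 2 of 8. The summed parietal list was higher in principal cells (2388, 2583 and 3187 per 1e+06 UMIs) than in parietal cells (1655, 1290 and 1450), and stood at 859, 947 and 818 in endothelial cells. Smooth muscle marker RNA was also present in the parietal class, summing to 1316, 1847 and 3437 per 1e+06 UMIs, against 73823, 57276 and 111643 in the mural class.

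Potassium channels let potassium leave or enter a cell and so set its membrane voltage. In vascular muscle they oppose contraction by holding voltage-gated calcium channels shut. In the tubule they recycle potassium for the sodium-potassium-chloride cotransporter and secrete it into the urine. Voltage-gated and inward-rectifier pores assemble as tetramers, tandem-pore channels as dimers, and beta, KCNE and KChIP proteins are partners that change gating. Levels below are UMIs summed over the cells of a class in 1 library and divided by all UMIs of that class, scaled to 1e+06 (CPM), in the order male, female and female ERaKO. A 3′ tag count also depends on how well a gene's end is captured, so genes are compared across classes and not with each other.

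The promoters of 4 members are shown because their genes marked the mural class (Kcnmb1 and Kcnj2) or podocytes (Kcnq1ot1 and Kcnf1). They were chosen by UMIs in those classes from part of the members with 1 promoter entry whose start lay in a GENCODE transcript. Not every member with more UMIs was eligible to be shown. Kcng2, with 3614 UMIs in podocytes against 2041 for Kcnf1, was left out, which says nothing about its promoter entry. Each run is the 250 bases before the start, 5′ to 3′ on the gene's strand, from RefSeq on GRCm38.p6. Kcnmb1 lies at chr11:33962763-33963012 (plus strand), Kcnj2 at chr11:111065914-111066163 (plus), Kcnq1ot1 at chr7:143296548-143296797 (minus) and Kcnf1 at chr12:17176889-17177138 (minus). Capitals mark CCAAT or GGGCGG or AGGTCA on either strand.
Kcnmb1: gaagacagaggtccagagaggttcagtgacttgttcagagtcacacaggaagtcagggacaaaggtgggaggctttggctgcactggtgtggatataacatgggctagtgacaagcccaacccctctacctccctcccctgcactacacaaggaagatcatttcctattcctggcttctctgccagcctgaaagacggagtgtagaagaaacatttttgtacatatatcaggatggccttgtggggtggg
Kcnj2: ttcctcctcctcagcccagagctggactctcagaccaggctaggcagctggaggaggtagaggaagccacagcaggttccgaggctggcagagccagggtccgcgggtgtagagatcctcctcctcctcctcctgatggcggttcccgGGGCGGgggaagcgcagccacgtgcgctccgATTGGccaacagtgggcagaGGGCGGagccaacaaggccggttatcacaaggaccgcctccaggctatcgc
Kcnq1ot1: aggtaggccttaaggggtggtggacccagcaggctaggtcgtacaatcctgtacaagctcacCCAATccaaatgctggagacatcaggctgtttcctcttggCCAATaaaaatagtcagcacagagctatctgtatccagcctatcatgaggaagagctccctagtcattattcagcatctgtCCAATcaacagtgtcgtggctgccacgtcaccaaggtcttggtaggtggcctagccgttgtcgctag
Kcnf1: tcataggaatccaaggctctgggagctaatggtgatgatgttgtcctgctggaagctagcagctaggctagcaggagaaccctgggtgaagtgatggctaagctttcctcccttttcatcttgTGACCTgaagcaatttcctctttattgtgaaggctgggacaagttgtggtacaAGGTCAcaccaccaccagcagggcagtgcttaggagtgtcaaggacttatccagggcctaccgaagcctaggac
The Kcnq1ot1 window held CCAAT 3 times, with its nearest copy 67 to 63 bases before the start. The Kcnf1 window held AGGTCA, the half-site bound by oestrogen and other nuclear receptors, 2 times, and the Kcnj2 window held GGGCGG 2 times and CCAAT 1 time. Of 32851 such windows of 27025 genes, 33.8% held CCAAT, 32.7% GGGCGG, 14% AGGTCA and 12.4% TATAAA. The full oestrogen response element, GGTCA and TGACC with 3 bases between them, was in 0.0639% of them and the CArG box, which binds serum response factor in muscle genes, in 1.47%. Windows were found for 47 of the 63 members (66 windows), and 28 held GGGCGG, 21 CCAAT, 5 AGGTCA, 2 TATAAA and 0 either the full element or a CArG box. Of the 8 windows of mural members, 0 held TATAAA and 0 held AGGTCA or a CArG box. These motifs do not overlap, the list was settled after windows had been read, and a match or its absence describes these letters only.

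The potassium channel genes were divided among the cell classes. Of the 63 members, 35 (55.6%) had a clear highest class, meaning the highest level in each of the 3 libraries and a mean at least 2-fold above the next class, against 23.3% of all genes with the same minimum of UMIs. The mural class had 9 (1.96% of all genes), podocytes 6 (2.53%), parietal cells 6 (1.69%), principal cells 3 (0.973%), and proximal tubule (3.81%), mesangial (1.76%), intercalated (0.825%) and phagocyte (3.22%) classes 2 each. Endothelial (3.21%), T and NK (2.32%) and thick limb and distal tubule (1.03%) classes had 1 each. By family the clear members were 13 of 24 voltage-gated subunits, 6 of 10 inward rectifiers, 6 of 7 calcium- or sodium-activated pores, 3 of 8 tandem-pore channels and 6 of 12 auxiliary subunits. Summed over the 62 coding members, channel RNA was 1005, 923 and 922 CPM in mural cells, 1488, 1333 and 1618 in principal cells and 792, 1157 and 1003 in the proximal tubule. It was 297, 278 and 275 in podocytes, 110, 109 and 122 in endothelial cells and 92.2, 100.1 and 94.5 in phagocytes, so that the order of these classes was the same in the 3 libraries except that mural cells stood above the proximal tubule in the male library and below it in the other libraries.

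**Figure D1:**
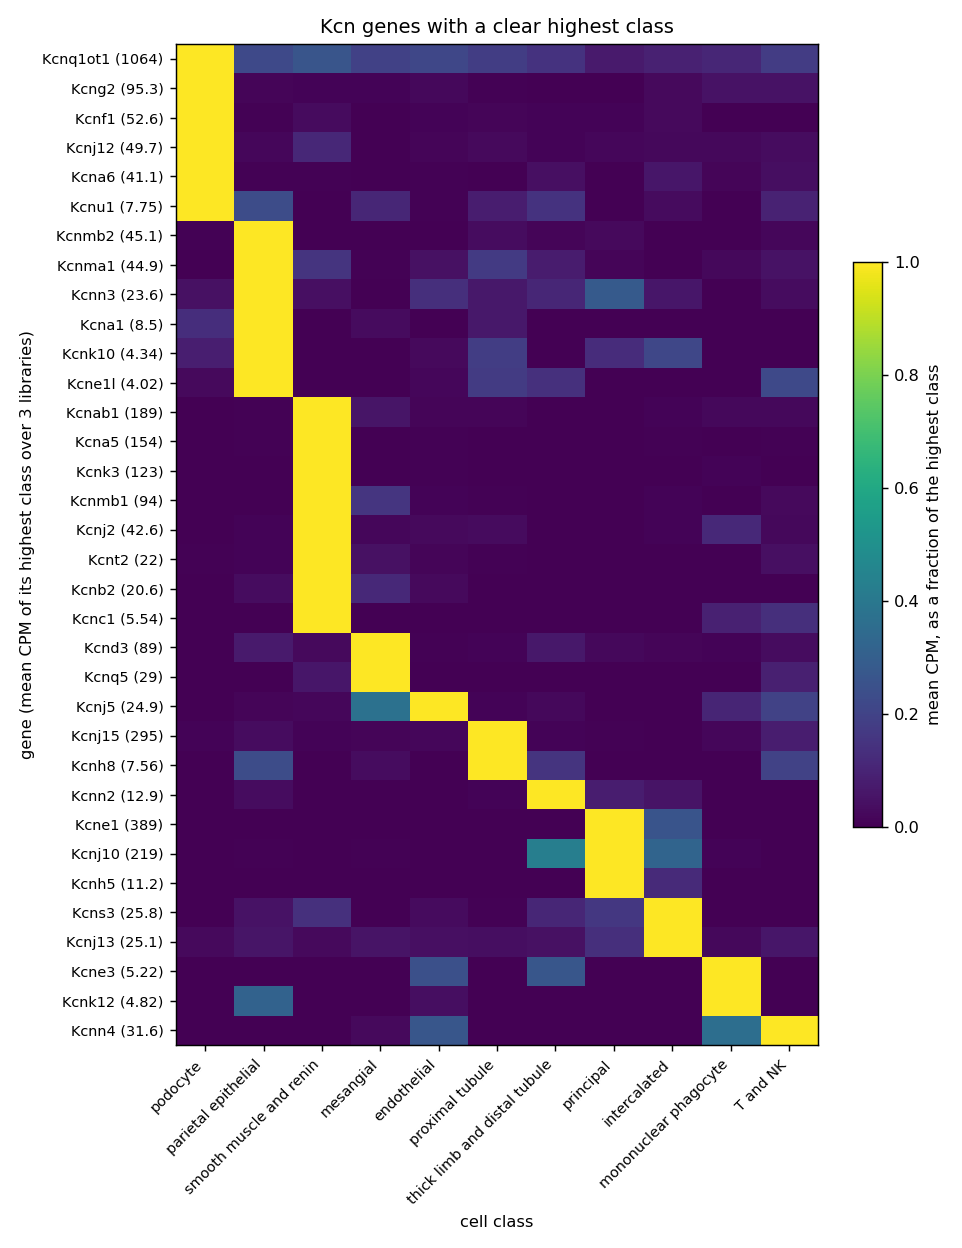
Kcn genes with a clear highest class, 34 of the 35 (rows, with the mean CPM of that class over 3 libraries) in 11 cell classes (columns); colour is the mean CPM as a fraction of the gene's highest class. The mural block (8 of its 9 genes), and the podocyte and parietal blocks of 6 each, are dark in nearly all other classes.

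In the mural class the leading members were the pores and partners of delayed-rectifier, leak and calcium-activated currents. Kcna5, the Kv1.5 pore, had 171 CPM (95% exact Poisson interval 153 to 191), 155 (134 to 179) and 136 (120 to 155), a mean of 154 ± 17.5 (SD, 3 libraries) against at most 1.30 in a library of the next class, endothelial cells. The mean was 172-fold above that class, and the intervals of the 3 libraries overlapped. After every cell was thinned to 4000 UMIs, 51.0%, 44.3% and 43.4% of mural cells had a Kcna5 UMI, against 0.0759%, 0% and 0.111% of podocytes and 0% of T and NK cells in each library, where 0 of 48, 48 and 35 cells allows a share of cells with a UMI, which is not the share expressing the gene, of up to 6.25%, 6.25% and 8.57%. Unthinned, the mural shares were 60.8%, 63.9% and 56.6%. Kcnab1, which encodes the Kv-beta-1 subunit that binds Kv1 channels, had 215, 164 and 187 CPM, and Kcnk3, the acid-sensitive TASK-1 leak channel, had 117, 126 and 125. Their means were 18.2-fold and 122-fold above the next class. The inward rectifier Kcnj2 (Kir2.1) had 42.8, 51.5 and 33.6 CPM, the sodium-activated Kcnt2 14.8, 33 and 18.3, Kcnb2 (Kv2.2) 15.9, 22.5 and 23.4 and Kcnc1 (Kv3.1) 4.39, 4.83 and 7.41. All 4 were above the next class in every library, Kcnc1 on 27 UMIs in all.

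The pore and the smooth muscle beta subunit of the BK channel, the large calcium-activated channel that relaxes vessels, had different patterns. Kcnmb1, the beta-1 subunit, had 97.1, 78.8 and 106 CPM in mural cells and 12.1, 12.4 and 19.4 in mesangial cells. Kcnma1, the pore, had 8.23, 4.83 and 7.41 CPM in the mural class and all of those UMIs lay in cluster 14, led by Myh11, Acta2 and Pln, with 36.7 (20.6 to 60.5), 31.7 (11.6 to 69.0) and 34.7 (18.5 to 59.3) CPM on 15, 6 and 13 UMIs. Clusters 9 (led by Rgs5) and 10 (led by Ren1, the renin gene) had 0 Kcnma1 UMIs in each library, which allows up to 3.87, 4.08 and 5.01 CPM in cluster 9 and up to 4.69, 9.42 and 3.85 in cluster 10. Kcnmb1 was present in all 3 clusters, at 80.1, 74.8 and 83.6 CPM in cluster 9, 89.1, 59.7 and 110.3 in cluster 10 and 142, 127 and 133 in cluster 14. Mesangial cells had 0, 0 and 1 Kcnma1 UMI. Renin cells also had less Kcna5, at 116, 56.5 and 80.8 CPM in cluster 10 against 159 to 208 in clusters 9 and 14. Kcnk3 lay between 101 and 165 CPM in the 9 combinations of cluster and library. Kcne4, a KCNE subunit that restrains Kv channels, was the reverse, at 42.2, 28.3 and 37.2 CPM in cluster 10 and at most 8.0 in the others. Kcnb2 was highest in cluster 9, at 31.0, 32.6 and 46.8 CPM, and had 0 UMIs in cluster 14. The clusters were formed from the same cells without Kcn genes, so these are descriptions and not tests.

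**Figure D2:**
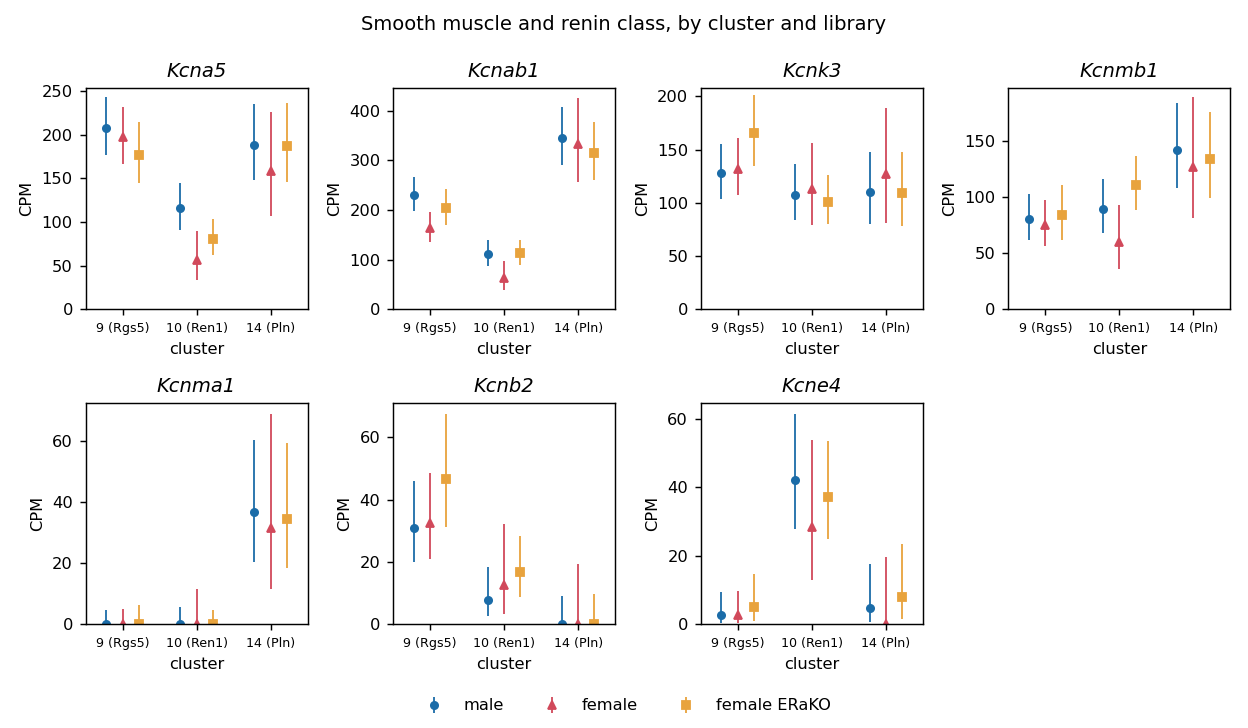
CPM of 7 Kcn genes in clusters 9, 10 and 14 of the smooth muscle and renin class, for each library (points; bars are 95% exact Poisson intervals). Kcnma1 is above 0 only in cluster 14, Kcna5 is lowest in cluster 10, and Kcne4 is highest there.

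The ATP-sensitive channel, which couples metabolism to vessel tone, was sparse. Its pore Kcnj8 (Kir6.1) had 3.29, 4.02 and 9.13 CPM in mural and 5.27, 4.97 and 7.77 in mesangial cells, and Kcnj11 (Kir6.2) had 14.3, 2.41 and 9.70 in mural cells on 26, 3 and 17 UMIs. Of the listed channel partners under other names, 13 of 18 genes had 20 UMIs and 2 of the 13 had a clear class (23.3% of all genes). The first was the sulphonylurea receptor Abcc8, with 13.7, 9.65 and 4.56 CPM in mural cells; the other receptor, Abcc9, had 12.1, 19.9 and 25.6 in mesangial and 18.7, 16.9 and 18.8 in mural cells. The other gene with a clear class was Lrrc52, a BK gamma subunit, at 29.9, 25 and 12.0 in thick limb and distal tubule cells. The L-type calcium channel pore Cacna1c, whose opening the potassium channels oppose, was clear in mural cells at 93.3, 103.8 and 68.4 CPM.

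Mesangial cells, the contractile cells between the capillary loops, had another Kv set. Kcnd3 (Kv4.3), an A-type pore, had 91.1 (75.6 to 108.9), 101.9 (73.1 to 138.3) and 73.8 (59.7 to 90.2) CPM there and at most 7.02 in a library of the next class, a mean 13.5-fold higher. In the female library, with 44 mesangial cells, 22.0% of its 41 UMIs came from 1 cell. Kcnq5, an M-type pore, had 27.1, 27.3 and 32.6 CPM, a mean 11.4-fold above the next class. Kcna5 had 1, 0 and 0 UMIs in the mesangial class and Kcnk3 0 in each library, so both were high in mural and not in mesangial cells in all 3 libraries.

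Podocytes, the epithelial cells that wrap the capillaries, had 6 members with a clear highest level, and 2 of them are Kv subunits that form no channel alone. Kcng2 (Kv6.2) had 89.8 (84.5 to 95.3), 96.3 (91.8 to 101) and 99.9 (93.1 to 107) CPM, and Kcnf1 (Kv5.1) had 60.3, 53.5 and 43.9, with means 19.7-fold and 33.9-fold above the next class. Such subunits are known to work by joining other Kv pores. Kcnb2, a pore of that kind, had 0, 0 and 1 UMI in podocytes. Thinned to 4000 UMIs, 30.4%, 30.9% and 29.8% of podocytes had a Kcng2 UMI, against 0%, 4.17% and 5.71% of T and NK cells, with median depths of 7740, 9221 and 7340 UMIs in podocytes and 5222, 6323 and 7587 in T and NK cells; unthinned, the podocyte shares were 48.1%, 56.6% and 50.3%. Kcnj12 (Kir2.2), a strong inward rectifier, had 51.0, 51.5 and 46.7 CPM, and Kcna6 (Kv1.6) 52.1, 36.8 and 34.5. Kcnu1, the pH-sensitive relative of the BK pore known from sperm, had 7.72, 8.48 and 7.07 CPM. The 3 libraries lay close together for Kcng2, Kcnj12 and Kcnu1, while Kcna6 was 1.40-fold higher in the male than in the female library and Kcnf1 1.21-fold lower in the female ERaKO than in the female library, both short of 1.5-fold.

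Kcnq1ot1, a long RNA made antisense to Kcnq1 from the paternal copy of an imprinted region, was the most counted member, with 51941 UMIs. It had 1075 (1057 to 1094), 1061 (1046 to 1076) and 1054 (1032 to 1077) CPM in podocytes and 291, 266 and 283 in mural cells, the next class, a 3.80-fold difference in mean. Kcnq1 itself, the Kv7.1 pore, had 0.415, 0.335 and 0.496 CPM in podocytes. Whether counting used strand is not given in the sources used here, so reads of the overlapping genes cannot be told apart with certainty. Their class patterns differed, and the assignment of reads between them was not tested.

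Among podocyte clusters the members did not move together. Cluster 7, led by Cst12, Igfbp6, Pla2g7 and Dkk3 and holding 137, 141 and 100 cells, had 15.2 (9.03 to 24.1), 25.2 (17.9 to 34.4) and 13.3 (6.66 to 23.9) CPM of Kcng2, against 80.9 to 114.6 in clusters 0, 2, 4 and 5. Kcnj12 was likewise at 17.8, 16.8 and 20.6 CPM there against 40.0 to 67.9 elsewhere. Kcnf1 had 49.1, 38.7 and 35.2 CPM in cluster 7, within or close to the 36.0 to 66.7 of the other clusters. Thus Kcng2 and Kcnj12 in cluster 7 did not overlap any other of these clusters in any library, and Kcnf1 did. Kcnq1ot1 was lowest in cluster 7 as well, at 597, 648 and 546 CPM against 781 to 1346.

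**Figure D3:**
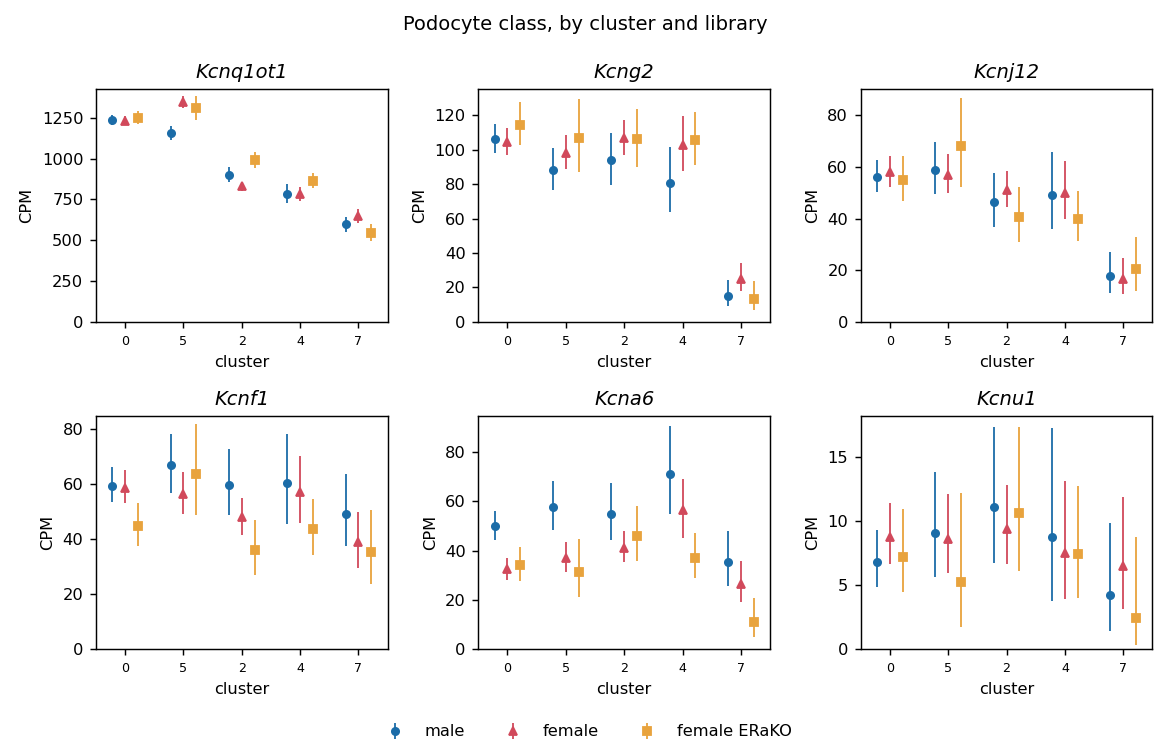
CPM of the 6 Kcn genes clear in podocytes, in podocyte clusters 0, 5, 2, 4 and 7, for each library (points; bars are 95% exact Poisson intervals). Kcng2 and Kcnj12 are lowest in cluster 7 in all 3 libraries, where Kcnf1 keeps 35.2 to 49.1 CPM.

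Parietal epithelial cells form the wall of the capsule around each glomerulus and are a reported site of renal progenitors. As a class they had RNA of the BK pore and of another beta subunit, and whether single cells had both was not tested. Kcnma1 was at 37.8 (29.5 to 47.7), 35.3 (24.9 to 48.6) and 61.6 (54.3 to 69.6) CPM, a mean 5.86-fold above the next class. That fold compares whole classes. The Myh11-led mural cluster described above had Kcnma1 levels close to the male and female parietal values. Kcnmb2, the BK beta-2 subunit that inactivates the channel, was at 55.1, 53.4 and 26.9 CPM and at most 2.25 in a library of the next class. Kcnn3, the small-conductance SK3 pore, had 17.8, 32.4 and 20.4 CPM, the Kv1.1 pore Kcna1 7.56, 12.4 and 5.53, the TREK-2 channel Kcnk10 4.86, 2.86 and 5.29 and Kcne1l, a KCNE subunit, 4.86, 2.86 and 4.33. The last pair rested on 34 and 30 UMIs in all. Kcnk5 (TASK-2), an alkali-activated leak channel of the proximal tubule, was shared: it had 104, 75.4 and 116 CPM in parietal and 122, 87.1 and 61.6 in proximal tubule cells, and the classes overlapped. The parietal cluster was led by Msmp, Lbp and Wnt16, and 2 of the 8 parietal markers were highest there, so the class name carries that limit.

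Tubule cells in the preparation carried the known renal channels. Kcnj1 (ROMK), the secretory channel of the distal nephron, had 640 (578 to 708), 425 (346 to 516) and 519 (462 to 581) CPM in thick limb and distal tubule cells, of which the female library had 10, with 28.4% of the 102 UMIs in 1 cell. In principal cells it had 371, 293 and 255. The classes did not overlap, but the means differed by 1.72-fold. Kcne1, a KCNE subunit that slows Kv7.1, had 355, 290.0 and 523 CPM in principal and 59.9, 116 and 127 in intercalated cells, and its partner pore Kcnq1 had 94.1, 96.7 and 109 in principal and 75.4, 96.9 and 91.7 in intercalated cells. The intercalated class also held principal marker RNA, summing to 1997, 4136 and 1897 CPM against 13810 to 15509 in principal cells, and its part in the intercalated values was not tested. Kcnj10 (Kir4.1), which sets basolateral voltage in the distal nephron, had 214, 209 and 234 CPM in principal cells, and its usual partner Kcnj16 (Kir5.1) had 304, 284 and 276. Kcnj16 overlapped in thick limb and distal tubule cells, at 299, 254 and 245. Kcnh5 was clear in principal cells on 26 UMIs, and Kcnn2 in thick limb and distal tubule cells on 20. Intercalated cells had Kcnj13 (Kir7.1) at 35.4, 19.4 and 20.6 CPM and the silent Kv subunit Kcns3 at 22.6, 15.6 and 39.3.

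Endothelial cells had a low channel level in all, and Kcnj5 (Kir3.4), a G-protein-gated inward rectifier, was the 1 clear member, with 25.5, 28.1 and 21 CPM. It divided the endothelium: cluster 1 (led by Kdr and Ehd3) had 44.7, 51.2 and 43.2 CPM and cluster 11 (Calca, Fabp4) 41.3, 35.0 and 44.4, against 3.38, 3.89 and 2.75 in cluster 3 (Tspan8, Sox17, Fbln5). Kcnn4, the intermediate-conductance KCa3.1 pore known for endothelial hyperpolarization and lymphocyte activation, was the reverse, at 15, 8.11 and 20.4 CPM in cluster 3 and 1.07, 0 and 0 in cluster 1. It had 2.95, 1.59 and 6.34 CPM in cluster 11 on 2, 1 and 3 UMIs. In cluster 23 (Esm1, Igfbp3) it had 54.7 CPM in 32 male cells and 29.7 in 22 female ERaKO cells, on 14 and 4 UMIs, and the 6 female cells there were not described. By class it was highest in T and NK cells, at 34.3, 44.8 and 15.8 CPM on 13, 18 and 7 UMIs, and that cluster also held Igkc, Igha and dividing cells. Phagocytes were clear for Kcne3 and Kcnk12 on 8 UMIs each, and both genes overlapped the next class. The lowest phagocyte library had 3.02 CPM of Kcne3, against up to 4.17 in thick limb and distal tubule cells. For Kcnk12 it had 1.52, against up to 4.32 in parietal cells.

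Between libraries, most members kept their level within a class. Ratios were computed in classes with at least 30 cells per library for members with at least 30 UMIs in the 2 libraries compared, as log2 of CPM plus 1, with 95% exact intervals of the ratio without that addition. Male against female gave 60 pairs of gene and class, of which 9 were at least 1.5-fold higher (15%, against 6.83% of 66094 pairs of all genes) and 8 lower (13.3%, against 6.36%). Female ERaKO against female gave 62 pairs, of which 14 were higher (22.6%, against 8.14% of 67615 pairs) and 8 lower (12.9%, against 6.94%). The shares of all genes, here and by class below, were not matched to the members for depth. Some member pairs past 1.5-fold rested on few UMIs, with intervals that included 0. With a higher minimum of UMIs each of these counts was smaller, on fewer pairs, as given in the last section. Whether the higher shares belong to Kcn genes or to depth was not tested. Median log2 ratios of the members were 0.03 and 0.10, beside 0.02 and 0.02 for all genes. Both comparisons use the same female library, so an unusual female value would enter both, and 1 mouse per group leaves sex, genotype and mouse impossible to tell apart. In podocytes the 6 clear members were all within 1.5-fold in both comparisons.

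**Figure D4:**
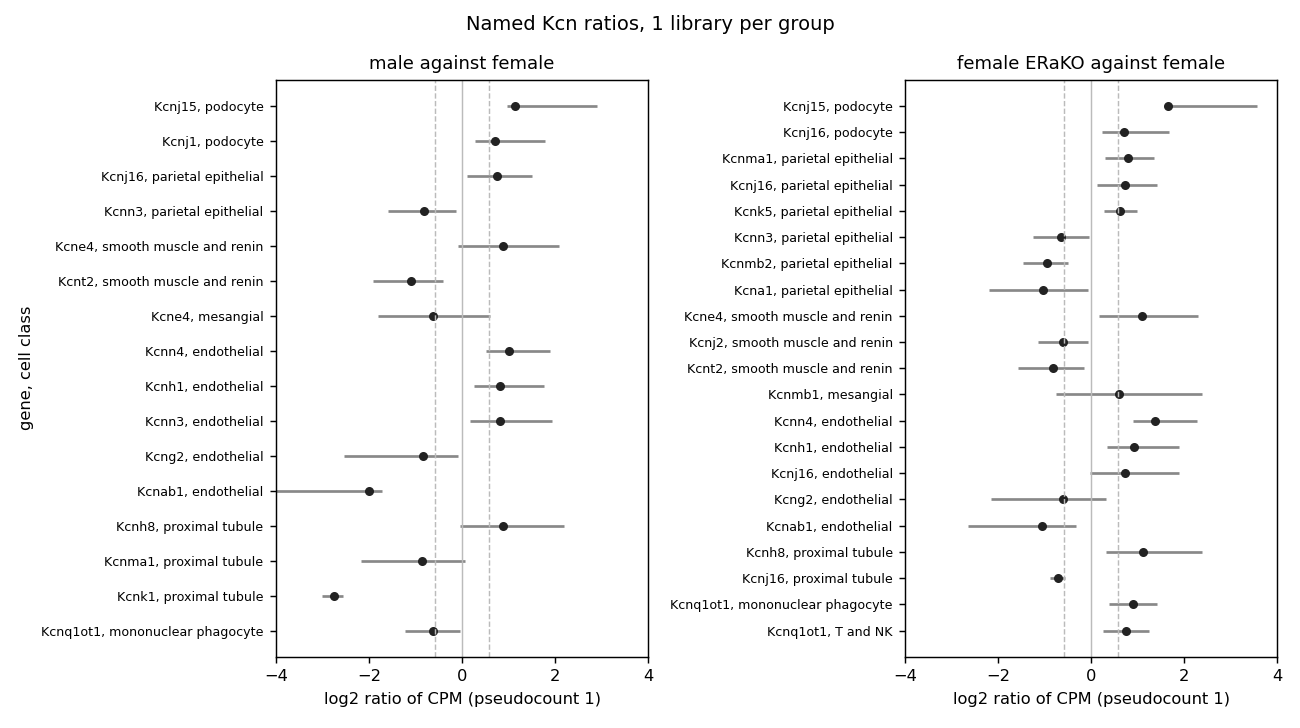
Log2 ratios (points, pseudocount 1 CPM) of the named Kcn genes past 1.5-fold (dashed lines) with 95% exact conditional intervals without pseudocount (bars; the male Kcnab1 bar goes past the left edge, and points can lie near a bar's end because only they include the pseudocount). Kcnk1 in the proximal tubule is farthest from 0 in the male comparison, at -2.77.

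The largest ratio by size was that of Kcnk1 (TWIK-1), a weakly rectifying leak channel found in tubule cells, in the proximal tubule. It had 66.5 (57.7 to 76.2), 458 (432 to 484) and 495 (475 to 515) CPM on 205, 1219 and 2297 UMIs, so the male library was lower than the female by 2.77 on the log2 scale (-3.00 to -2.57), while the female ERaKO library was within 1.5-fold. The proximal tubule cells of the libraries were spread over different clusters: cluster 17 (Miox) held 87 of the male, 3 of the female and 36 of the female ERaKO cells, cluster 21 (Pck1) 0, 42 and 56, cluster 13 (Slc5a2) 68, 34 and 83 and cluster 15 (Aadat, Slc7a12, Napsa) 15, 40 and 85. Of the 205 male Kcnk1 UMIs, 141 lay in cluster 13 and 64 in cluster 15. In the female and female ERaKO libraries Kcnk1 lay mainly in cluster 15. The 3 libraries had 193 (149 to 247), 1181 (1114 to 1250) and 1093 (1047 to 1140) CPM in cluster 15. Within that cluster, which had only 15 male cells, the male library was 6.09-fold lower than the female (log2 ratio -2.61, -3.00 to -2.25). Within cluster 13 the ratio had the other sign, with 80.8, 46.7 and 77.2 CPM (0.78, 0.31 to 1.30). In parietal cells Kcnk1 had 188, 149 and 161 CPM and in thick limb and distal tubule cells 136, 150.0 and 154, with no such gap. Thinned to 4000 UMIs, 7.65%, 33.6% and 39.6% of proximal tubule cells had a Kcnk1 UMI (31.2%, 46.2% and 54.2% unthinned), against 4.17%, 2.08% and 8.57% of T and NK cells.

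Of 8 proximal tubule members, 1 was higher (12.8% of all genes) and 2 lower (7.25%) in the male than in the female library, and of 9, 1 was higher (7.19%) and 1 lower (6.12%) in the female ERaKO library. Kcnj15 (Kir4.2), the basolateral inward rectifier of this segment, had 352, 318 and 216 CPM, 12.6-fold above the next class in mean. Kcnj16 had 173, 210 and 127 and was 1.65-fold lower in the female ERaKO than in the female library (log2 ratio -0.72, -0.90 to -0.56), with values of 201, 236 and 90.4 in cluster 13, 109, 159 and 153 in cluster 15 and, without male cells, 263 and 190 in cluster 21. The difference was thus largest in cluster 13 and small in cluster 15. Kcnh8, a pore of the ELK group of Kv channels, lay in cluster 13 with 14.9, 10.7 and 27.1 CPM. Over the class it was 2.17-fold higher in the female ERaKO than in the female library on 47 and 11 UMIs (log2 ratio 1.12, 0.32 to 2.39). It was also 1.84-fold higher in the male library, on 26 UMIs (0.88, -0.04 to 2.19). Within cluster 13 the ratios were 0.44 (-0.59 to 1.64) for the male and 1.26 (0.37 to 2.43) for the female ERaKO library.

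**Figure D5:**
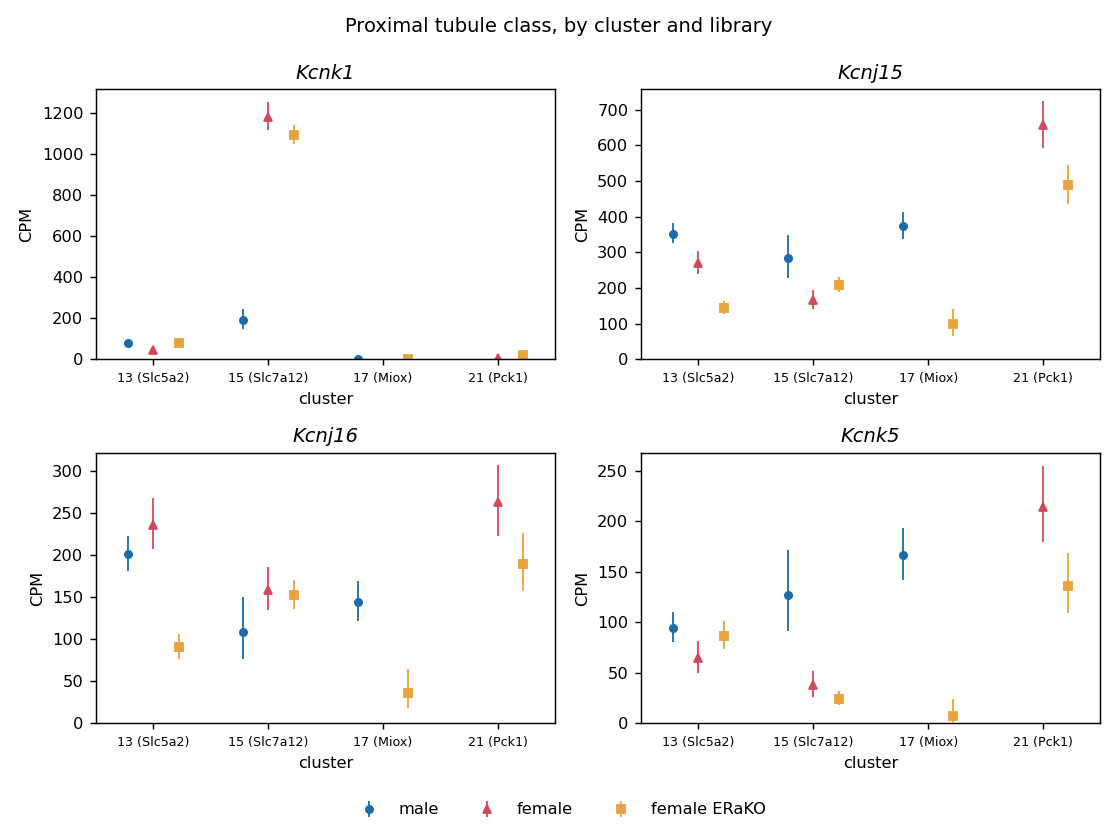
CPM of 4 Kcn genes in the 4 proximal tubule clusters, for each library with at least 10 cells in the cluster (points; bars are 95% exact Poisson intervals). Kcnk1 in cluster 15 stands at 1181 and 1093 in the female and female ERaKO libraries and at 193 in the male library.

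In parietal cells 3 of 12 members were higher (9.83% of all genes) and 3 lower (5.57%) in the female ERaKO than in the female library. The BK subunits differed in direction: Kcnma1 was 1.72-fold higher (log2 ratio 0.79, 0.30 to 1.34; 256 against 37 UMIs, 21.6% of the latter in 1 cell) and Kcnmb2 1.95-fold lower (-0.96, -1.46 to -0.50; 112 against 56). Kcna1 was lower by 1.04 on the log2 scale (-2.21 to -0.06) and Kcnn3 by 0.64 (-1.26 to -0.05), and Kcnk5 and Kcnj16 were 1.53-fold and 1.64-fold higher. Proximal tubule marker RNA in the parietal class was also lowest in the female library, at 396, 328 and 463 CPM, as was thick limb marker RNA, at 146, 39.1 and 144, and their part in these ratios was not tested. The male library also differed from the female in Kcnn3 (-0.83, -1.60 to -0.13) and Kcnj16 (0.76, 0.10 to 1.51), 1 of 8 members lower (4.52%) and 1 higher (10.1%). With classes given cell by cell, the Kcnj16 ratios turned to -0.062 (male) and -0.53 (female ERaKO), and in the female ERaKO comparison Kcnmb2 (-0.54) and Kcnn3 (-0.44) fell short of 1.5-fold. Kcnk5 did so with median-of-ratios scaling (0.57). Smooth muscle marker RNA in this class was also highest in the female ERaKO library, as given above, and its part in the parietal ratios was not tested.

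In endothelial cells 4 of 14 members were higher (2.37%) and 2 lower (2.84%) in the male than in the female library, and 4 of 13 higher (3.66%) and 2 lower (4.04%) in the female ERaKO library. Kcnn4 had 9.23, 4.06 and 12.1 CPM on 59, 28 and 59 UMIs, giving ratios of 1.02 (0.51 to 1.89) and 1.38 (0.91 to 2.28). Within cluster 3 the ratios were 0.82 (0.13 to 1.67) and 1.23 (0.62 to 2.08), so the difference was also present among those cells. Cluster 3 held 221 of 772, 212 of 684 and 207 of 480 endothelial cells, and cluster 23 held 32, 6 and 22. The part of these cell numbers in the class ratios was not tested. Kcnh1, the EAG1 pore, had 7.19, 3.62 and 7.81 CPM, with ratios of 0.83 (0.26 to 1.75) and 0.93 (0.34 to 1.90). Within cluster 11 the Kcnh1 ratios were 0.54 (-0.66 to 1.87) and 1.04 (-0.14 to 2.39). Those rested on 16, 10 and 16 UMIs, and both intervals included 0. Kcnab1 was lower by 2.01 in the male (3 against 34 UMIs) and by 1.06 in the female ERaKO library (9 against 34). Summed smooth muscle marker RNA in endothelial cells was 120, 324 and 762 CPM, lowest in the male library and highest in the female ERaKO library, and its part in the Kcnab1 ratios was not tested. Kcng2, a podocyte gene, was also lower, at 1.41, 3.33 and 1.85 CPM, where podocyte marker RNA summed to 1478, 1416 and 1322, and its part was not tested.

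In mural cells 1 of 10 members was higher (6.20%) and 1 lower (6.49%) in the male than in the female library, and 1 higher (5.98%) and 2 lower (10.1%) in the female ERaKO library. Kcne4 had 17, 8.85 and 20.0 CPM, with ratios of 0.87 (-0.09 to 2.08) and 1.09 (0.16 to 2.30). Renin-led cluster 10 held 98 of 286, 35 of 158 and 108 of 249 mural cells, and within it the ratios were 0.56 (-0.55 to 1.85) and 0.38 (-0.72 to 1.66), both short of 1.5-fold. Kcnt2 was lower by 1.10 (-1.91 to -0.42) and 0.82 (-1.57 to -0.15), and within cluster 9, where most of it lay, by 0.36 and 0.13. Kcnj2 was 1.51-fold lower in the female ERaKO library. Kcna5, Kcnab1, Kcnk3 and Kcnmb1 were within 1.5-fold in both comparisons.

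In podocytes 2 of 13 members were higher (1.64%) in the male and 2 of 12 (3.01%) in the female ERaKO library, and 0 were lower (1.93% and 3.28%). All are tubule genes at low level: Kcnj15 had 2.90, 0.78 and 4.59 CPM on 35, 14 and 37 UMIs, Kcnj1 was 1.62-fold higher in the male and Kcnj16 1.63-fold in the female ERaKO library. Proximal tubule marker RNA in podocytes was ordered as Kcnj15 was, at 88.9, 34.9 and 130 CPM, and its part in the Kcnj15 and Kcnj16 ratios was not tested. Distal convoluted tubule marker RNA was at 38.3, 20.1 and 20.4 CPM and principal marker RNA at 15.1, 8.36 and 7.07, both highest in the male library as Kcnj1 was, and their part in the Kcnj1 ratio was not tested. Kcnq1ot1 was the 1 member deep enough in phagocytes, at 63.5, 98.6 and 184 CPM, which made it lower in the male (17.2% of all genes lower, 4.98% higher) and higher in the female ERaKO library (7.98% higher, 16.2% lower). With classes given cell by cell the male ratio turned from -0.63 to 0.80. Podocyte marker RNA in phagocytes, lowest in the male library as Kcnq1ot1 was, summed to 716, 972 and 996 CPM, and its part was not tested. In T and NK cells it was at 203, 137 and 230 CPM, higher in the female ERaKO library (31.1% of all genes higher, 12.6% lower) and within 1.5-fold in the male (11.6% higher, 17.2% lower). Podocyte marker RNA in that class summed to 253, 986 and 2350 CPM and its own marker RNA to 1962, 2732 and 1266, and their part in the ratio, which fell to 0.50 with median-of-ratios scaling, was not tested. In mesangial cells 1 of 4 members, Kcne4, was lower in the male library, at 15.8 against 24.9 CPM (6.58% of all genes lower, 9.39% higher). There 1 of 4, Kcnmb1, was higher in the female ERaKO library, at 19.4 against 12.4 (10.5% higher, 7.09% lower), and each rested on at most 31 UMIs. Smooth muscle marker RNA in mesangial cells, at 477, 400.2 and 663 CPM, was also highest in the female ERaKO library, and its part was not tested.

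Lists of other ion transport genes were mapped in the same way, and some of their members (Slc12a1, Slc12a3, Wnk4, Fxyd4 and Trpm6) were also markers that named the classes. Of the sodium pump genes, 5 of 13 had a clear class (23.3% of all genes). Of the potassium-coupled transport and WNK genes, 11 of 20 did, 5 of them in thick limb and distal tubule cells, including the cotransporters Slc12a1 and Slc12a3 and the kinases Wnk1 and Wnk4. Slc12a2, the secretory cotransporter, was clear in mesangial cells at 916, 843 and 785 CPM. Of the calcium and TRP channels, 14 of 33 did; podocytes had the calcium channel subunit Cacna2d2 at 126, 83.2 and 23.7 and parietal cells the T-type pore Cacna1g at 46.4, 63.0 and 60.6. Between libraries, the sodium pump list had 17 of 58 pairs higher and 3 lower in the male and 18 of 60 higher and 7 lower in the female ERaKO library. The WNK list had 9 and 8 of 80, and 12 and 11 of 83, the calcium and TRP list 11 and 3 of 104, and 12 and 7 of 105, and the partner list 0 and 1 of 27, and 0 and 1 of 29. The shares for all genes are those given above, and they were not matched to these lists for depth either.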

How the data were processed

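Kidney glomerulus cells of 3 mice were measured, 1 droplet library of 3′ tags each. The authors deposited whole UMI counts, not normalized, for each gene in each barcode. Cell Ranger 6.1.2, STAR 2.7.5a and mm10 are named in the submitters' processing notes; the barcode filter and use of strand are not given in the sources used here. All 99 genes were placed by Ensembl ID in GENCODE M21 (GRCm38), with no coordinates converted. Members and lists were chosen with earlier results of these data known.

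Kept cells had 500 or more genes and 25% or less mitochondrial UMIs, and Scrublet doublets (112, 53 and 142) were removed with scanpy 1.11.5. Clusters came from 2000 variable genes, 30 components and 15 neighbours, without Kcn genes (Leiden resolution 1, leidenalg 0.10.2). A cluster took the best marker list with a score of at least 1, a lead of 0.75 and 3 markers 2-fold up, if its 10 top genes by fold held no more markers of another class. These minima, omission of the erythroid list (haemoglobin RNA was in all classes) and merging of the thick limb and distal convoluted lists were set after clusters were seen. Clusters under the minima, 1.52%, 1.37% and 2.23% of cells, and 30 urothelial cells were not analysed. Named genes are up to 5 clear members per class with 20 UMIs in it, and the 3 highest and 3 lowest ratios past 1.5-fold per class; other names were added for their family or after values were seen. With 1 library per group no test of a difference was made. Intervals were tested on simulated Poisson counts of podocytes, male against female, with 200 of 11422 genes changed, and 95.4% held the true ratio. The intervals assume such counts, so this checks their computation and not the spread between cells or mice. Limits for 0 use 3 counts. Counts cover all members, and values of 1 mural member are not reported here. Alternatives covered the filters, doublets, classes, resolution, scaling, pseudocount and minimum UMIs. Other tools were igraph 0.11.9 (with leidenalg), scikit-learn 1.9.0 and scipy 1.17.1 under Python 3.11.15, with tables in pandas 2.3.3 and numpy 2.4.6 and figures by matplotlib 3.10.9.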

Additional observations from a re-analysis of the deposited data

How the results depend on the processing

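No paired analysis was possible because each group has 1 library. Of the 63 members, 49 had at least 50 UMIs and 66 reached 20 over all barcodes. Between 29 and 40 members had a clear class under the alternatives, and 27 to 35 of the 35 had it in the same class; 27 was with at most 10% mitochondrial UMIs, which left 8 classes, without intercalated, principal and thick limb cells. Of 311 values of the 37 named ratios under those alternatives, 300 stayed within their counting interval, 8 moved beyond it and 3 turned. Not every ratio had a value in every alternative, and 15 of 37 stayed past 1.5-fold in all alternatives in which they had one. The 22 that fell short in at least 1 alternative were, male against female, Kcng2, Kcnh1 and Kcnn3 in endothelial cells, Kcnj1 and Kcnj15 in podocytes, Kcnh8 and Kcnma1 in proximal tubule cells, Kcne4 in mesangial cells, Kcnj16 in parietal cells and Kcnq1ot1 in phagocytes, and, female ERaKO against female, Kcnab1, Kcng2, Kcnh1 and Kcnj16 in endothelial cells, Kcnj16 in podocytes, Kcnj16, Kcnk5, Kcnmb2 and Kcnn3 in parietal cells, Kcnj2 in mural cells, Kcnmb1 in mesangial cells and Kcnq1ot1 in T and NK cells. The 3 that turned did so with classes given cell by cell: Kcnj16 in parietal cells became -0.53 (female ERaKO) and -0.062 (male), and Kcnq1ot1 in phagocytes 0.80 (male); the cause was not tested. Counts of pairs past 1.5-fold, given as male higher 9, male lower 8, female ERaKO higher 14 and lower 8 in the report, became 3, 5, 9 and 4 with a pseudocount of 5 CPM, 93, 73, 92 and 65 without a minimum of UMIs (327 pairs tested) and 0, 2, 5 and 4 with a minimum of 100 UMIs (33 and 36 pairs). With at most 10% mitochondrial UMIs the lower counts were 5 and 5. With doublets kept the male higher count was 14, and with classes given cell by cell the male lower count was 5 and the female ERaKO higher count 22. Shares of all genes under these alternatives are not given here, so these counts cannot be set against a background. Ratios within single clusters were added after the data were seen: Kcnk1, male against female, was -2.61 in cluster 15 and turned to 0.78 in cluster 13, and Kcnj16, female ERaKO against female, was -1.38, -0.056 and -0.47 in clusters 13, 15 and 21. Depth was low in the small classes: the female library had 10 thick limb and distal tubule, 28 principal and 34 intercalated cells.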
